A study of Arabidopsis thaliana with 6 samples.

Results

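The first 2 Mb of Arabidopsis chromosome 2 hold 645 of the 38189 genes in the count tables. They are the loci from AT2G01000 to AT2G05540 that end at or before position 2034283 of that chromosome. The stretch was singled out because its genes lay higher in the hb34 mutant than in the wild type, so the members were selected on the hb34 to WT difference in CPM itself, which is described here without a test. Read counts came from 3 libraries of the hb34 mutant and 3 libraries of the Columbia wild type (WT). All were labelled mock for treatment and came from plants grown for 10 days at 22 °C with a 16 h day and an 8 h night. The labels name hb34 as a mutant in the Columbia background and give no allele, and they say of no library whether it came from a separate pool of plants. Any p-value below therefore measures the spread between these libraries, which may be technical. The series title ties the study to jasmonic acid synthesis, immunity and growth.

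HB34 encodes a zinc finger homeodomain protein, a plant class of transcription factor that binds DNA sites with an ATTA core. Chromosome 2 of Arabidopsis begins with an array of ribosomal RNA genes, and the gene-rich short arm that follows runs towards a centromere rich in pseudogenes and transposons. Neighbouring plant genes are mostly transcribed one by one from their own promoters, so a stretch of this size normally holds genes of many unrelated functions.

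HB34 itself (AT3G28920, on chromosome 3) had 1.04, 2.19 and 1.21 CPM (the count scaled to a library total of 1000000 counts) in hb34 libraries, against 85.3, 88.1 and 93.2 CPM in WT libraries. The groups did not overlap, and the log2 fold change was -5.90 ± 0.25 (SE; edgeR quasi-likelihood test, adjusted p = 0.00042). Library totals lay between 17562497 and 19670468 counts, and 17905 genes had enough counts to be tested. The material is labelled leaves and described as seedlings: the leaf markers RBCS1A, CAB1, RCA and GAPA all stood at 4675 CPM or more in every library, whereas 6 of 10 root markers had no read and 0 of the 10 had enough reads to be tested. A gene with 3 counts would stand at 0.153 to 0.171 CPM, a floor that covers counting error only.

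The sequences of 6 genes are shown as description, with upstream windows in the first set and coding starts in the second. The first set is the 250 bases before the annotated start of AT2G05540, the last member, of AT2G05590, the first tested gene beyond it, and of LPP1, the member with the largest fold change. They are written 5′ to 3′ on the gene's own strand, from TAIR10.1. Capitals mark TAATTA, a palindrome that holds the ATTA core on both strands.
AT2G05540 upstream (chr2:2032904-2033153, plus strand): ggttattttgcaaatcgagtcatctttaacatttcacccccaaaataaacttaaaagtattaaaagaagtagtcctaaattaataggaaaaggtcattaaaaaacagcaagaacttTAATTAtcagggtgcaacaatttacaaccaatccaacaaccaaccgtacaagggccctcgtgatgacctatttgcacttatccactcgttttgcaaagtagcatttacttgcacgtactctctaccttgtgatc
AT2G05590 upstream (chr2:2066811-2067060, plus strand): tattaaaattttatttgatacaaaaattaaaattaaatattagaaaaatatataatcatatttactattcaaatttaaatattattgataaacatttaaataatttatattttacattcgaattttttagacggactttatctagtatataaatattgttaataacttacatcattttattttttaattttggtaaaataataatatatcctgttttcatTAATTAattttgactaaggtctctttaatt
LPP1 upstream (chr2:108830-109079, minus strand): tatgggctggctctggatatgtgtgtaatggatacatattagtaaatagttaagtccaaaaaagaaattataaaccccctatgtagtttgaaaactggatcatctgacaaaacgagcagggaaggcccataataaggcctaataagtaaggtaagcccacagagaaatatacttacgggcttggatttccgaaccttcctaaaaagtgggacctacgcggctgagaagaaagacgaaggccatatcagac
The 6 letters stood in 1 place before AT2G05540, in 1 place before AT2G05590 and in 0 places before LPP1. Over the same window they occurred in 73 of the 249 tested members (29.3%), in 4976 of 17634 other tested genes with a window (28.2%) and in 25.7% of all nuclear genes. A match describes the letters only.

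The second set is the first 90 coding bases of the 3 LHCB2 genes, whose products are antenna proteins of photosystem II. LHCB2.1 and LHCB2.2 are members and LHCB2.3 lies on chromosome 3. Capitals mark the 25 positions at which not all 3 genes carry the same base.
LHCB2.1 (chr2:1824242-1824331, minus strand): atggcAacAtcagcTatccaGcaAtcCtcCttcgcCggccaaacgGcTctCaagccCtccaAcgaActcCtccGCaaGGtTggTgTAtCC
LHCB2.2 (chr2:1800240-1800329, minus strand): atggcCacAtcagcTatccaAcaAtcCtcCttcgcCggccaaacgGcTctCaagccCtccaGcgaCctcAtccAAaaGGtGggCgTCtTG
LHCB2.3 (chr3:10256002-10256091, plus strand): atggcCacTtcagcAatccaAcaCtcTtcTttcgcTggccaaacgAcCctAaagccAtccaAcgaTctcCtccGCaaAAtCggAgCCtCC
Over their 798 coding bases LHCB2.1 and LHCB2.2 were 96.6% identical, and their longest shared run was 152 bases. Of 649 windows of 150 bases, the read length, 3 windows were shared, so nearly all full-length matches within the coding sequence belong to 1 of the 2 genes. LHCB2.3 shared no such window with either, and its longest run in common with each was 38 bases.

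Expressed genes of nearly every function along the stretch stood about 1.9-fold higher in hb34. Of the 645 members, 308 had no read in any library, 88 had reads but too few to be tested, and 249 were tested. Among the tested members, 154 passed an adjusted p of 0.05 as higher in hb34 and 0 as lower, where 3.77% of all tested genes passed as higher and 2.5% as lower. Those counts belong to the contrast that chose the members and carry no weight beyond description. The number of calls depended on single WT libraries: leaving out WT replicate 1 gave 0, with 1 gene of the whole genome passing as higher. Leaving out WT replicate 2 gave the same 2 counts. Leaving out hb34 replicate 3 gave 98, with 274 genes (1.51%) of the whole genome passing as higher. In 206 of the 249 all hb34 libraries lay above all WT libraries and in 1 all lay below, where 18.6% and 15.6% of all tested genes did so. The tested members passed the filter on low counts partly through the hb34 libraries and do not stand for all 645.

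The members' values spread around their median somewhat less than those of other genes around theirs. The median log2 fold change was 0.95 over the 249 tested members, with quartiles at 0.72 and 1.23, and over the 17656 other tested genes it was 0.0030. Among the 217 members whose mean log2 CPM was 1 or more the median was also 0.95, a 1.94-fold difference, and 146 of them (67.3%) lay between 1.5-fold and 2.5-fold, with 33 below and 38 above. The width between the quartiles was 0.48 over these 217 and 0.59 over the 15415 other genes of that level. Only 9 of the 249 had a negative value. The libraries are of whole tissue, in which more cells of a type and more RNA per cell cannot be told apart. No cause of the difference, whether of this kind or another, was tested.

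Taken as a share of each library, all 645 members together held 2.635%, 2.752% and 2.744% of the counts in hb34 libraries, against 1.377%, 1.505% and 1.404% in WT libraries. These means, 2.71% ± 0.065 in hb34 and 1.43% ± 0.067 in WT (SD, n = 3 each), stand in a ratio of 1.90, and the groups did not overlap. LHCB2.1 and LHCB2.2 carried about as many counts as all the other members combined, and without that pair the shares were 1.31% ± 0.036 in hb34 and 0.676% ± 0.028 in WT (SD, n = 3 each), a ratio of 1.94. The members with too few reads to be tested summed to 10.25, 12.91 and 11.03 CPM in hb34 libraries, against 7.606, 8.028 and 6.244 CPM in WT libraries, a ratio of 1.56.

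Each hb34 library showed the shift when read alone. The median log2 ratio of the 217 members to mean WT CPM was 0.95, 0.81 and 0.99 in hb34 replicates 1 to 3. For each WT library set against the other WT libraries the same median was 0.08, -0.07 and -0.01. The 15415 other genes of that level had medians of 0.04, -0.07 and 0.03 in hb34 libraries and 0.06, -0.08 and 0.02 in WT libraries. The highest hb34 library was replicate 1 for 78 members, replicate 2 for 59 and replicate 3 for 80.

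**Figure D1:**
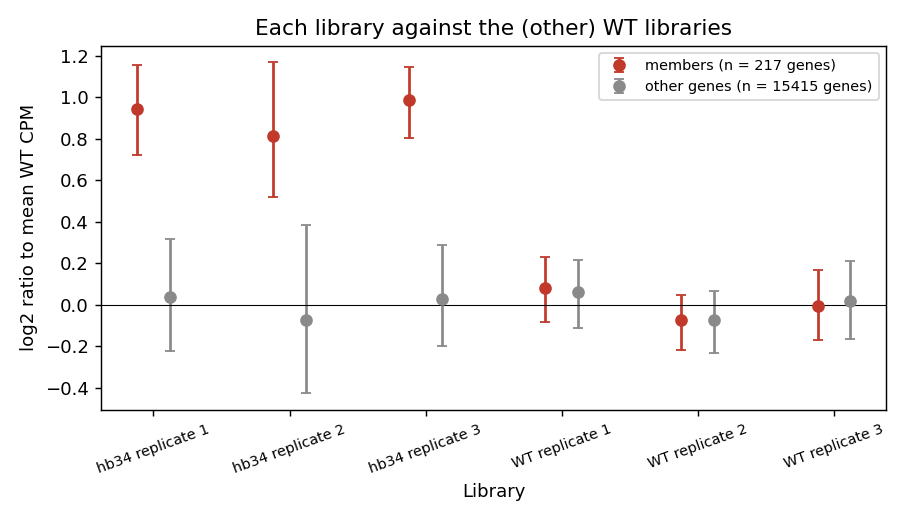
Median log2 ratio of each library's CPM to the mean of the WT libraries (for a WT library, of the other WT libraries), with bars from the first to the third quartile over genes whose mean log2 CPM was 1 or more. The 217 members (red) sit at 0.81 to 0.99 in hb34 libraries and near 0 in WT libraries, and the 15415 other genes (grey) sit near 0 in all 6.

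Along the chromosome the members' median was nearly level, and it was near 0 in the first window beyond the last member and higher again in 1 of the sparse windows after that. In 5 successive windows of 400 kb (the last one running to position 2034283) the median log2 fold changes were 0.95, 0.98, 0.95, 0.94 and 0.83 over 58, 47, 54, 26 and 32 members of that level. In the next 400 kb it was 0.01 over 22 genes, with 1 of 30 tested genes passing as higher and 1 as lower. The first 2 Mb of the other chromosomes had medians of 0.08 on chromosome 1, 0.03 on chromosome 3, 0.04 on chromosome 4 and 0.02 on chromosome 5 at that level.

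The last member, AT2G05540 (a glycine-rich protein gene at chr2:2033154-2034283), had 16.7, 15.5 and 36.6 CPM in hb34 libraries, against 8.37, 7.80 and 6.65 CPM in WT libraries, a log2 fold change of 1.57 ± 0.34 (SE). The next tested gene, AT2G05590 (a TLD-domain protein gene at chr2:2067061-2069255), had 13.0, 14.8 and 12.8 CPM in hb34 libraries, against 11.3, 10.8 and 12.5 CPM in WT libraries, a log2 fold change of 0.22 ± 0.15 (SE). The groups did not overlap at either gene. Between them lay 32778 bases and 9 genes with too few reads to test. The 3 tested genes that follow had log2 fold changes of -0.25 for PGR5, which acts in cyclic electron flow around photosystem I, -0.13 for the autophagy gene ATG8D and -0.53 for AT2G05632, and the hb34 and WT libraries overlapped at PGR5 and ATG8D. Just inside the end, the log2 fold changes of the last tested members before AT2G05540 were 0.50 for AT2G05320, 0.70 for GRP3S, -0.57 for GRP9, 1.18 for the noncoding AT2G05518 and 0.38 for GRP3. None of these passed, so where the shift ends is uncertain.

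Farther on, few genes had reads. In the second window of 400 kb beyond the end 3 of 4 tested genes passed as higher. Their median log2 fold change was 1.00 over all 4 tested genes and 0.59 over the 3 whose mean log2 CPM was 1 or more, the level used for the windows above. In the third window 2 of 12 passed, with a median of 0.34 over all 12 and over the 8 of that level. These 5 genes are named after their values were seen. RPA1A, a replication protein A gene at 2584984, had 2.80, 2.29 and 3.06 CPM in hb34 libraries, against 0.598, 0.285 and 1.28 CPM in WT libraries, a log2 fold change of 1.86. Next to it PSBX, for a small photosystem II subunit, had 0.59 at 2587729 and VPS2.1 had 1.42 at 2588523. AT2G06950 at 2859226 had 0.76 and HEN2, an RNA helicase gene at 2894904, had 1.52, with 39.8, 44.7 and 37.9 CPM in hb34 libraries, against 14.5, 12.5 and 15.6 CPM in WT libraries. XTH4 (0.35), which lies between these 2 groups, and CAS1 (-0.04), which follows HEN2, did not pass.

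At the other end of the stretch the values were negative. The first 4 tested genes, between 3706 and 9399, are an 18S ribosomal RNA gene (AT2G01010), AT2G01021 and the noncoding AT2G03865 and AT2G03875, and their log2 fold changes were -0.48, -1.22, -0.66 and -0.57. AT2G01010 had 1.04, 0.712 and 0.95 CPM in hb34 libraries, against 1.20, 1.65 and 0.921 CPM in WT libraries, which overlapped. Ribosomal RNA genes stand in many near-identical copies, so reads at this end cannot be placed with certainty.

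**Figure D2:**
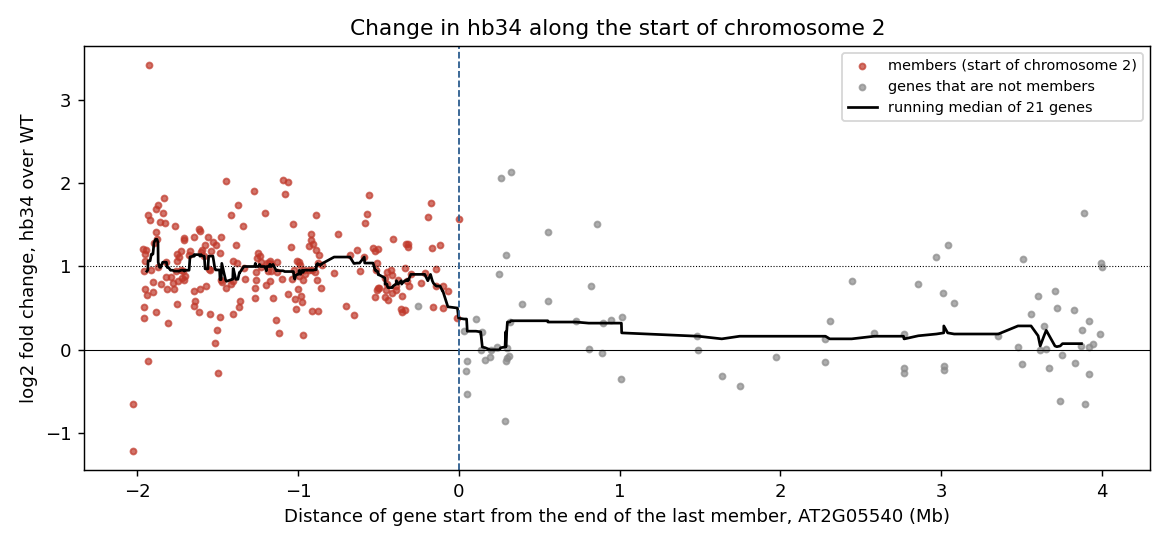
Log2 fold change of each tested gene whose mean log2 CPM was 1 or more against the distance of its start from the end of AT2G05540 (dashed line, in Mb), with members in red, other genes in grey and a running median of 21 genes in black. The median stays near 0.95 (dotted line at 1) across the 2 Mb of members and drops around the dashed line. A median over 21 genes cannot place that drop exactly. The lowest members, at -1.22 and -0.66, are the ribosomal end of the chromosome. The single grey point among the members is AT2G00410, whose locus code lies outside the range.

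Longer genes had larger values in and out of the stretch. Spearman's rho between log2 fold change and summed exon length was 0.56 over the 217 members and 0.51 over the 15415 other genes, a description across genes of the same 6 libraries. Members under 1000 bases had a median of 0.59 and other genes of that length -0.35, members of 3000 bases or more had 1.38 and others 0.48, and the members' median stood above that of the others by 0.94, 0.96, 0.93 and 0.90 in the 4 classes from short to long. The trend was also present between WT libraries: rho of the log2 ratio with length over other genes was 0.54 in WT replicate 3, -0.37 in WT replicate 1 and -0.28 in WT replicate 2. With the trend removed per library by an offset, a setting added after seeing the data, the members' median was 0.98 (1.97-fold). Their interquartile width fell to 0.34, against 0.48 without it, and 166 members (76.5%) lay between 1.5-fold and 2.5-fold. Over the other genes that width fell as well, to 0.44, against 0.59 without the offset. The offset left 152 members passing as higher, while over the genome 341 genes (1.9%) passed as higher and 221 (1.23%) as lower, against 675 and 447 without it.

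**Figure D3:**
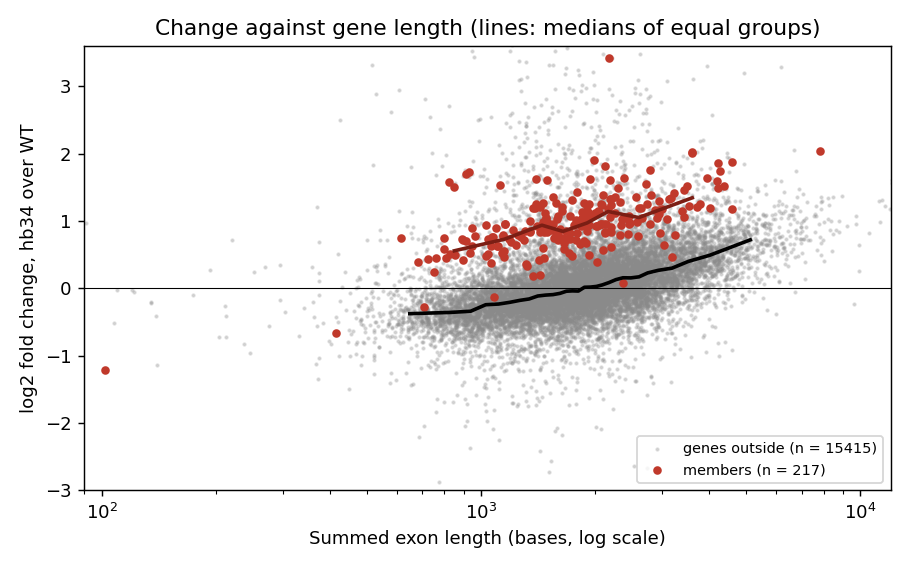
Log2 fold change against summed exon length in bases (log scale) for 217 members (red) and 15415 other genes (grey), with lines through the medians of 8 and 30 groups of equal size. Both lines climb with length and the members' line runs about 0.9 above the other, and 42 grey genes fall outside the axes.

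Chloroplast genes carried most of the reads of the stretch. All 17 listed members were tested and 11 passed as higher, with a median log2 fold change of 0.86. In all 17 the hb34 libraries lay above the WT libraries, as they did in 206 of all 249 tested members and in 18.6% of all tested genes. For this list and those below, 154 of all 249 tested members and 3.77% of all tested genes passed as higher. The list counts describe that same contrast and carry no weight about a function. LHCB2.1 (chr2:1822990-1824480), whose protein moves between the photosystems in state transitions, had 9163, 9512 and 9244 CPM in hb34 libraries, against 4300, 5457 and 4807 CPM in WT libraries. LHCB2.2 (chr2:1799234-1800472) had 4245, 5139 and 4667 CPM in hb34 libraries, against 2420, 2860 and 2739 CPM in WT libraries. Neither gene's groups overlapped, and the log2 fold changes were 0.92 ± 0.13 and 0.80 ± 0.13 (SE). Per kilobase of exon these 2 were the highest members, at means of 6619 and 4097 CPM per kb in hb34 and 3453 and 2338 CPM per kb in WT, followed by GRP3 at 362 and 273 CPM per kb.

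HSP90.5 (chr2:1281754-1286144), the HSP90 chaperone of the chloroplast, had 519, 573 and 468 CPM in hb34 libraries, against 215, 185 and 192 CPM in WT libraries, a log2 fold change of 1.39 ± 0.12 (SE). RNEE/G, the chloroplast endoribonuclease related to bacterial RNase E, had 52.3, 54.4 and 54.2 CPM in hb34 libraries, against 12.6, 13.95 and 17.5 CPM in WT libraries, and its log2 fold change of 1.86 was the largest of the list. Every hb34 value of both genes exceeded every WT value by a wide margin. TATC, a translocase subunit of the thylakoid membrane, had a log2 fold change of 1.07 and AT2G04700, the catalytic subunit of ferredoxin-thioredoxin reductase, one of 0.71. AT2G04039, a gene of a chloroplast protein, had 323, 244 and 344 CPM in hb34 libraries, against 217, 221 and 187 CPM in WT libraries (0.53), apart but not passing. The plastid aldolase gene FBA3 (0.65), ISPD of isoprenoid synthesis (0.52) and SOLDAT10 (0.36) did not pass.

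Hormone and signalling members had a median log2 fold change of 1.13, with 11 of 17 tested members passing as higher. RGA (chr2:255247-257568) encodes a DELLA protein, a repressor of gibberellin responses. It had 345, 295 and 353 CPM in hb34 libraries, against 196, 181 and 188 CPM in WT libraries, a log2 fold change of 0.80 ± 0.10 (SE) with no overlap. AHK4, a cytokinin receptor kinase, had 59.9, 31.7 and 44.4 CPM in hb34 libraries, against 21.02, 14.6 and 23.6 CPM in WT libraries (log2 fold change 1.18), and ARR14, a response regulator of the same pathway, had a log2 fold change of 0.89. The auxin exporter gene PIN4 (0.79), the phosphatase gene IBR5 of auxin signalling (0.94) the receptor-like kinase gene AT2G01820 (1.14) and the protein kinase gene APK2B (1.13) passed as well. RHA2B, a RING finger gene of abscisate signalling, had 17.98, 7.07 and 12.6 CPM in hb34 libraries, against 12.8, 14.2 and 13.6 CPM in WT libraries, which overlapped fully (log2 fold change -0.13). The peptide gene CLE16 was at 0.33 and did not pass.

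In the transcription list 11 of 18 tested members passed as higher and the median log2 fold change was 1.05. IDD5, WRKY1 and SEP4, which encode an indeterminate-domain, a WRKY and a MADS-box protein, had log2 fold changes of 1.298, 1.23 and 1.27. The chromatin remodeller gene CHR19 had 1.25, MED8 of the Mediator complex 1.05 and NRPB6B, a shared RNA polymerase subunit, 0.90. IDD4, the neighbour of IDD5, had 31.2, 15.9 and 34.0 CPM in hb34 libraries, against 28.0, 23.6 and 23.7 CPM in WT libraries. Its groups overlapped and its log2 fold change was 0.08 ± 0.25 (SE), while IDD5 had 78.1, 54.0 and 54.0 CPM in hb34 libraries, against 21.7, 26.6 and 26.4 CPM in WT libraries. HB21, a zinc finger homeodomain gene of the same family as HB34, had 1.04, 0.712 and 0.739 CPM in hb34 libraries, against 0.652, 0.228 and 0.614 CPM in WT libraries, and did not pass at that low level.

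Values in the translation list ran from 0.63 to 1.14. Of 6 tested members 5 passed as higher, with a median of 0.73. AT2G01250, a ribosomal protein L30/L7 gene, had 428, 402 and 412 CPM in hb34 libraries, against 298, 247 and 219 CPM in WT libraries, a log2 fold change of 0.69, and NMD3, which exports the large ribosomal subunit, had 1.14. The ribosomal S17 genes AT2G04390 and AT2G05220 had 0.72 and 0.77, but they shared 153 of 274 windows of 150 bases, so the split of reads between them is uncertain. Most members of this list are short, and with the length offset these 4 values were 0.91 for AT2G01250, 1.11 for NMD3, 1.05 for AT2G04390 and 1.07 for AT2G05220.

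Transporter genes had a median of 0.99, with 8 of 12 tested members passing as higher. The peptide and nitrate transporter family genes NPF8.3 and NPF8.4 stood at 0.96 and 0.97, the sodium exporter gene SOS1 at 1.25 and the ABC transporter gene ABCG7 at 1.41. SOS1 had 43.9, 42.4 and 40.1 CPM in hb34 libraries, against 15.5, 16.9 and 20.2 CPM in WT libraries, with no overlap. UPS2, a ureide permease gene, had 0.96 and its relative UPS1, near 1 CPM in both genotypes, 0.13.

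Cell wall and lipid members ranged from GRP9, near 1 CPM, at -0.57 to LPP1 at 3.42, with quartiles at 0.49 and 0.92. Of 13 tested members 5 passed as higher, and the median of 0.67 was the lowest of the 9 member lists. XTH27, which encodes an enzyme that cuts and rejoins xyloglucan, had 230, 405 and 292 CPM in hb34 libraries, against 125, 113 and 124 CPM in WT libraries, a log2 fold change of 1.36. LACS8, a long-chain acyl-CoA synthetase gene, had 153, 147 and 149 CPM in hb34 libraries, against 61.2, 62.5 and 72.0 CPM in WT libraries (1.19). The expansin gene EXPA15 had 22.9, 10.9 and 20.2 CPM in hb34 libraries, against 17.7, 15.4 and 13.1 CPM in WT libraries, and the 2 groups overlapped. GRP3, a glycine-rich wall protein gene, had 298, 263 and 595 CPM in hb34 libraries, against 324, 400 and 149 CPM in WT libraries, so that its spread within each genotype exceeded the difference between them. GRP3S was likewise highest in hb34 replicate 3 and lowest in WT replicate 3, with 183, 130 and 425 CPM in hb34 libraries, against 178, 173 and 94.5 CPM in WT libraries.

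Before the length offset, genes of the cell cycle and cytoskeleton had the highest list median, 1.34. Of 9 tested members 8 passed as higher. MAP65-6, a microtubule bundling protein gene, had 88.7, 81.3 and 88.9 CPM in hb34 libraries, against 32.1, 25.8 and 36.0 CPM in WT libraries (1.45). STI, needed for leaf hair branching, was at 1.74, AT2G05120, a nucleoporin gene, at 1.60, and CDC48B and AT2G04660, a subunit of the anaphase-promoting complex, at 1.39 and 1.32. SPR1, a microtubule protein that keeps cells from growing in a spiral, had the lowest value, 0.47, with 151, 125 and 154 CPM in hb34 libraries and 106, 104 and 97.9 CPM in WT libraries. POT1A, of a family of telomere proteins, was at 0.97. The offset for length brought MAP65-6 to 1.10, STI to 1.25, AT2G05120 to 1.07, AT2G04660 to 1.05, POT1A to 0.84 and CDC48B to 1.34. It brought SPR1 to 0.69, and the median of the 217 members was 0.98 with it.

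All 4 tested genes of the ubiquitin list passed as higher, with a median of 1.00. CAND1, which exchanges the substrate receptors of cullin ligases, had 94.6, 97.1 and 91.7 CPM in hb34 libraries, against 32.6, 26.8 and 41.3 CPM in WT libraries, a log2 fold change of 1.49. UBC2, a conjugating enzyme gene, was at 0.93, PUX2 at 1.06 and RIE1 at 0.83, while ASK14, ASK16 and ASK19 had no read.

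Of 14 tested stress and metabolism genes 6 passed as higher, and the median was 0.91. ACR5 had 152, 161 and 165 CPM in hb34 libraries, against 84.0, 78.1 and 86.9 CPM in WT libraries (0.93), and NRP1 had 77.0, 94.4 and 87.7 CPM in hb34 libraries, against 48.9, 48.2 and 41.8 CPM in WT libraries (0.89). GAD4, a glutamate decarboxylase gene, was at 1.36 and GSTZ1, of tyrosine breakdown, at 1.07. PDF2.3, a defensin gene, had 68.3, 50.4 and 57.7 CPM in hb34 libraries, against 77.9, 66.5 and 68.5 CPM in WT libraries, a log2 fold change of -0.28. With RHA2B it is one of 2 members among the 217 that had a negative value outside the ribosomal end, and with the length offset PDF2.3 was at 0.09 and RHA2B at 0.11. A second defensin gene, PDF2.2, had 0.24, and AT2G03505, of no list, had 0.18. RPI2, a ribose-5-phosphate isomerase gene, had 289, 108 and 222 CPM in hb34 libraries, against 143, 156 and 146 CPM in WT libraries, which overlapped (0.45).

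**Figure D4:**
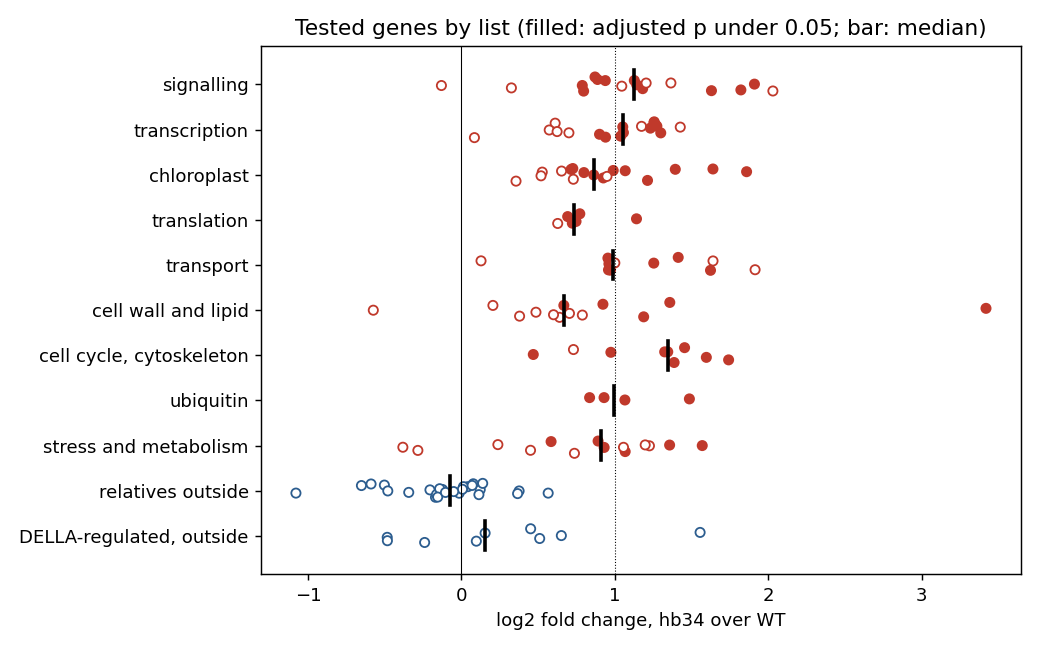
Log2 fold change of each tested gene in the 9 member lists (red) and in the lists of relatives and of DELLA-regulated genes outside the stretch (blue), with filled points for genes that passed in edgeR and a bar at each median. The member lists have medians of 0.67 to 1.34, and the lists outside have -0.08 and 0.15 with no filled point.

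A few members had far larger values through hb34 replicate 2. LPP1 (chr2:106621-108829), a phosphatidic acid phosphatase gene, had 23.5, 217 and 57.3 CPM in hb34 libraries, against 7.99, 11.05 and 9.21 CPM in WT libraries. Its log2 fold change of 3.42 ± 0.79 (SE) was the largest of all members and was 2.06 without hb34 replicate 2. MPK17, a MAP kinase gene, had 117, 312 and 126 CPM in hb34 libraries, against 59.3, 46.5 and 52.6 CPM in WT libraries, with a log2 fold change of 1.82 and of 1.17 without that library. In both genes the lowest hb34 library still lay above the highest WT library.

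Of the 217 members, 10 had more than 2 times as many CPM in hb34 replicate 2 as in each of the other hb34 libraries, and 4 had fewer than 0.5 times as many. Beside LPP1 and MPK17 the 10 were the peptide hormone receptor gene PSKR1, AT2G03240, the light sensor gene PLPB, the sucrose transporter gene SUC3, XERICO, AT2G03750, BPC1 and SOT12. Without that library PSKR1 had a log2 fold change of 1.16, against 2.03 with it, AT2G03240 had 0.91, against 2.01, and SOT12 had 0.27, against 1.20. Other members with values near 2 were even across libraries: AT2G03140, a hydrolase family gene, had 93.4, 88.8 and 86.6 CPM in hb34 libraries, against 20.3, 17.5 and 27.0 CPM in WT libraries, a log2 fold change of 2.04 and of 1.14 with the length offset. Its neighbour emb1579 had 73.4, 60.3 and 73.1 CPM in hb34 libraries, against 17.3, 15.7 and 23.0 CPM in WT libraries, with 1.87 and 1.33 with the offset.

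**Figure D5:**
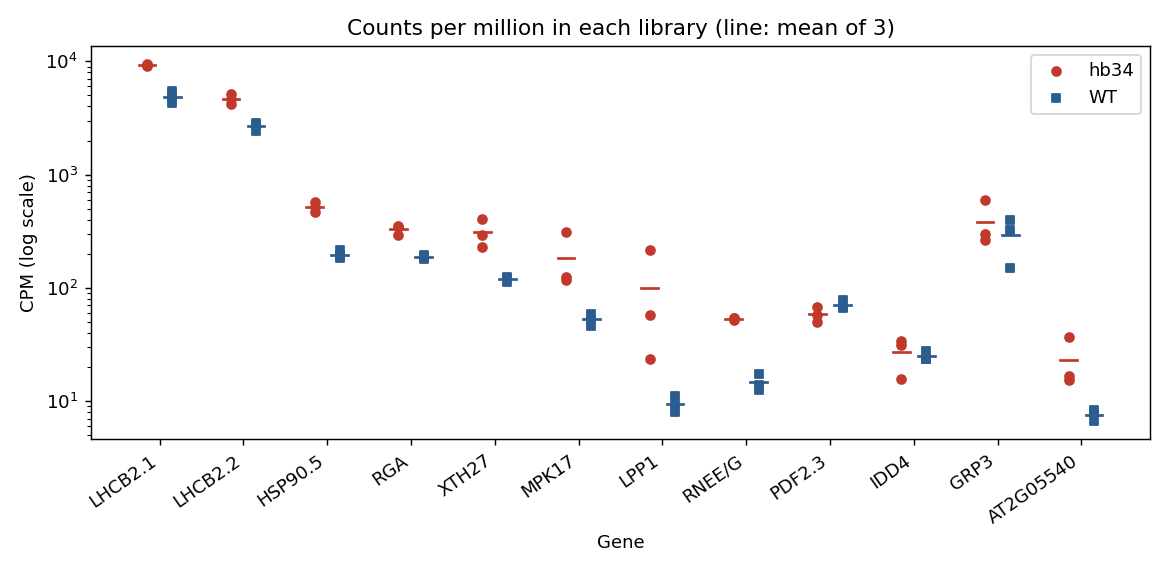
CPM (log scale) of 12 members in each library, hb34 as red circles and WT as blue squares, with a line at each mean of 3. The groups are apart for LHCB2.1, LHCB2.2, HSP90.5, RGA, XTH27, MPK17, LPP1, RNEE/G and AT2G05540, and overlap for PDF2.3, IDD4 and GRP3.

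Close relatives of members that lie elsewhere in the genome had a median near 0. Of 26 tested relatives 0 passed in the edgeR test, 0 in limma-voom, and 3 in DESeq2 (1 higher and 2 lower, of 27), and their median log2 fold change was -0.08. Over all genes DESeq2 called 9.0% higher and 5.51% lower, and limma-voom 3.36% and 2.33%. At an unadjusted edgeR p of 0.05, 2 relatives were higher and 3 lower. The share of all tested genes at that unadjusted level is not given here, so these counts cannot be called many or few. LHCB2.3 had 644, 861 and 669 CPM in hb34 libraries, against 1056, 1075 and 1272 CPM in WT libraries, a log2 fold change of -0.65 ± 0.16 (SE, adjusted p = 0.053 by edgeR), with no overlap. AHK2, another cytokinin receptor gene, had 19.4, 20.7 and 23.4 CPM in hb34 libraries, against 13.5, 13.9 and 15.2 CPM in WT libraries (log2 fold change 0.56, adjusted p = 0.0526 by edgeR, and 0.02 with the length offset), and WHY1 had -0.48 (adjusted p = 0.0743), beside 0.62 for its relative WHY3, a member that did not pass.

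The other DELLA genes, set beside RGA, had log2 fold changes of -0.59 for GAI, -0.34 for RGL1 and -1.08 for RGL2. None of the 3 passed (edgeR adjusted p of 0.334 for GAI, 0.14 for RGL1 and 0.197 for RGL2). GAI had 66.2, 17.59 and 51.6 CPM in hb34 libraries, against 71.6, 63.9 and 64.3 CPM in WT libraries, with replicate 2 lowest. RGL2 was also lowest in hb34 replicate 2, with 21.9, 3.46 and 15.2 CPM in hb34 libraries. Without that library the log2 fold changes were -0.22 for GAI, -0.26 for RGL1 and -0.63 for RGL2. RGL3 had too few reads to be tested, with 0.219, 5.74 and 0.475 CPM in hb34 libraries, against 1.52, 0.512 and 0.307 CPM in WT libraries. Of 11 genes known to respond to DELLA proteins 9 were tested, with a median of 0.15. Of these 9, 0 passed in edgeR, DESeq2 or limma-voom, where edgeR called 3.77% of all tested genes higher and 2.5% lower. Unadjusted edgeR p-values below 0.05 were found for 0 higher and 1 lower, again without the share of all tested genes at that level. SCL3, a target of DELLA proteins, had 20.4, 22.6 and 19.2 CPM in hb34 libraries, against 31.7, 23.3 and 31.6 CPM in WT libraries (log2 fold change -0.48, adjusted p = 0.0972). AT2G31730, a bHLH gene, had -0.48 as well (adjusted p = 0.258). GA3OX1, which makes bioactive gibberellin, had 1.70, 11.5 and 1.48 CPM in hb34 libraries, against 1.68, 1.99 and 1.43 CPM in WT libraries, so that its log2 fold change of 1.55 came from hb34 replicate 2 and was -0.13 without it. Leaving out that library also took AT5G50915 of this list from 0.51 to -0.90 and GID1B from 0.65 to -0.04. TRM13 and GA20OX1 moved up, from 0.45 to 0.61 and from -0.24 to -0.06.

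Most of the 645 genes of the stretch were not expressed at a measurable level. Of the 432 protein-coding members 243 were tested and 153 of them passed as higher. Of 88 pseudogenes 0 had enough reads, nor did any of 71 long noncoding RNA genes, 7 tRNA genes or 3 miRNA genes, and 2 of 33 transcribed pseudogenes were tested, AT2G05300 with a log2 fold change of 1.27 and AT2G04110 with 0.42. Among gene families with several members in the stretch, 2 of 9 phloem protein 2 genes were tested (PP2-B1 at 0.74 and PP2-B10 at 0.79), 3 of 7 MATE efflux genes (from 0.56 to 1.44) and 4 of 7 glycine-rich protein genes (from -0.57 to 1.57), beside 249 of all 645 members. Members that overlap another gene had a median of 0.97 (n = 73) and those that do not 0.94 (n = 144), and reads of overlapping genes cannot be told apart without strand information.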

How the data were processed

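Total RNA was sequenced in 3 hb34 and 3 WT libraries (paired-end Illumina, per the labels' protocols). Each table holds the raw read counts of 1 library as deposited, summed over a gene's exons per the file headers. The submitters' processing notes name HISAT2 2.1.0, DESeq2 1.30.1 and TAIR10. The read counter, its use of strand and the treatment of multiply mapped reads were not given in the sources used here. RefSeq TAIR10.1 matched 37971 of 38189 identifiers and is the source of symbols and sequences, and 37774 had the same start and end there. A further 9 genes inside the range carry locus codes outside it and are not members.

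Groups follow the sample titles. CPM are raw counts over library totals, with 0.5 added before a log ratio of single libraries. Genes were filtered with filterByExpr (minimum count 10, total 15), TMM-scaled and tested in edgeR 4.0.16 under R 4.3.3 (glmQLFit, legacy FALSE, glmQLFTest, 2-sided, genotype only), with Benjamini-Hochberg adjustment over 17905 genes. The SE is the absolute log2 fold change divided by the square root of the quasi-likelihood F statistic. The length offset is a lowess curve of log2 ratio on length (span 0.3) per library.

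The members and the lists were chosen with earlier results of these data known. Named genes are the 4 highest by CPM in each list, the 8 largest and 8 smallest fold changes and the 6 highest members (mean log2 CPM 1 or more), those at each end, HB34 and the 3 smallest p of each outside list; others named were chosen after their values were seen. Alternatives were other scalings and filters, DESeq2 1.42.0, limma-voom 3.58.1, a replicate block and leaving out each library.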

Additional observations from a re-analysis of the deposited data

How the results depend on the processing

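The median log2 fold change of all tested members ran from 0.865 to 0.973 over the scalings, filters, tools, offset and left-out libraries tried. The number of members passing as higher was 140 with upper quartile scaling, 185 with DESeq2, 147 with limma-voom, 153 without a filter and 152 with the length offset, against 154. No setting gave a member passing as lower. Over all tested genes the shares passing as higher were 2.99%, 9.0%, 3.36%, 2.79% and 1.9% in the same order, against 3.77%. Leaving out 1 library gave from 0 to 173 members passing as higher, with 0 without WT replicate 1 or 2, 98 without hb34 replicate 3 and 109 without WT replicate 3. The share of all tested genes passing as higher moved too, from 0.00548% without WT replicate 2 to 4.7% without hb34 replicate 2. It was 1.51% without hb34 replicate 3 and 2.76% without WT replicate 3. The cause was not tested.

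With the replicate number as a block 0 members passed, and 2 genes higher and 3 lower over the genome. Same-numbered libraries deviated together with correlations of -0.11, -0.15 and -0.35, so the numbers give no pairing.

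Among the relatives outside, 1 passed as higher with DESeq2, and as lower 1 did with upper quartile scaling, 1 with library size only, 1 without a filter and 2 with DESeq2, and from 0 to 1 when 1 library was left out. Without 1 library GA3OX1 ran from -0.134 (without hb34 replicate 2) to 2.00, and ATG8D from -0.237 to 0.00348 (without WT replicate 1), with 0.17 under the length offset. Of 879 values of 55 named members under 16 settings, 65 moved by more than the SD of the hb34 libraries and no member that passed changed sign. That SD is wide where a single hb34 library stands apart, so the count can miss large shifts of such genes. Without hb34 replicate 2, LPP1 went from 3.42 to 2.06 and PSKR1 from 2.03 to 1.16. Depth limits the 308 members without a read and the 88 with too few to test.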
